A study of Homo sapiens with 2 samples.

Results

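The histone deacetylases described here are 10 genes, HDAC1 to HDAC9 and HDAC11, among 57820 gene rows of the count table. They were chosen by gene symbol, and all 10 symbols matched 1 gene identifier each in both count tables of the series. The RNA came from T47D, a widely used luminal breast cancer cell line that expresses the estrogen receptor. The cells carried the Y537S exchange in ESR1, the gene of estrogen receptor alpha, and were placed in hormone-deprived, antibiotic-free medium before transfection with control siRNA at 25 nM. By their labels the 2 libraries are replicates of 1 group, so this group, with its receptor mutation and its control siRNA, was the only condition, and no comparison between conditions was made. The labels do not say whether the mutant line is a single clone or whether separate cultures were harvested, and p-values then measure only the difference between these samples, which may be technical. The other sample columns of the tables were not used here.

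Histone deacetylases remove acetyl groups from lysines of histones and other proteins and so work against the acetyltransferases. The zinc-dependent enzymes fall into class I (HDAC1, HDAC2, HDAC3 and HDAC8), class IIa (HDAC4, HDAC5, HDAC7 and HDAC9), class IIb (here HDAC6) and class IV (HDAC11). HDAC1, HDAC2 and HDAC3 are the catalytic subunits of nuclear corepressor complexes, some of which bind estrogen receptor alpha when it is held by an antagonist. Class IIa proteins have little catalytic activity of their own and shuttle between nucleus and cytoplasm, bound to MEF2 factors in one and to 14-3-3 proteins in the other.

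The libraries held 41370662 reads on genes in replicate 1 and 37198274 in replicate 2. The label of a luminal line fitted its markers: all 8 luminal genes were detected, led by KRT19 with 1385 ± 19.6 TPM (mean ± SD, n = 2), and the 4 basal genes, the 4 immune genes and the 3 endothelial genes were not detected. Of 4 mesenchymal genes COL1A1 was detected with 1.11 ± 0.0783 TPM, and VIM had 3 reads in each library. Detected means at least 1 CPM, reads scaled to library size, in both libraries. The basal gene TP63, with 61 and 30 reads, passed this line in replicate 1 only (1.47 and 0.806 CPM). The immune genes PTPRC (0 and 17 reads) and CD14 (4 and 16) and the endothelial gene VWF (0 and 12) had more reads in replicate 2. The remaining immune and endothelial genes had no reads in either library. Other gene rows cover 85.8% of the exon bases of the immune gene CD68 and 40.2% of those of the basal gene KRT17. The levels of these 2 genes are therefore uncertain. TPM also divides by the exon length of each gene, so levels of different genes are compared in TPM. Coordinates are those of hg19.

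All 10 members were detected, as were 60.9% of the protein-coding genes by the same rule. Their median was 8.53 TPM, against 9.24 TPM for the 11718 detected protein-coding genes and 2.31 TPM for all 19250. The levels ran from 63.7 TPM for HDAC1 to 0.215 TPM for HDAC9. At a threshold of 1 TPM in both libraries 8 members remained, without HDAC4 and HDAC9. Class I transcripts made up 71.4% of the summed TPM of the members in replicate 1 and 70.0% in replicate 2. Class IIa accounted for 11.8% and 13.1%, HDAC11 for 11.4% and 11.3% and HDAC6 for 5.44% and 5.65%. In RNA from a culture, fewer cells with a transcript and less of it per cell cannot be told apart.

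**Figure D1:**
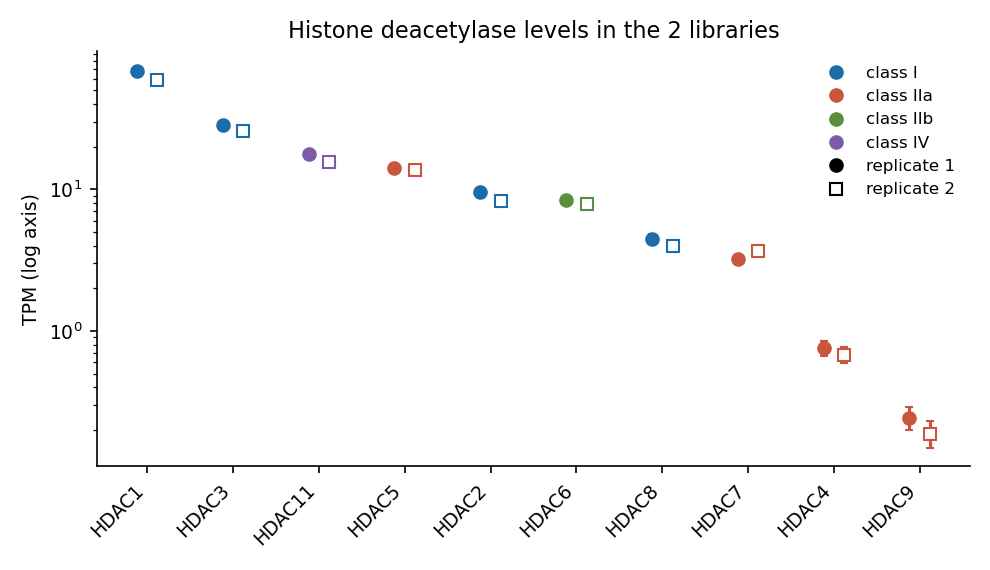
TPM of each member (log axis) in replicate 1 (filled circles) and replicate 2 (open squares), ordered by mean and coloured by class. Bars are exact Poisson 95% intervals of the counts, mostly smaller than the symbols. Class I members take places from the highest, HDAC1 at 63.7 TPM, to the seventh, HDAC8 at 4.19 TPM, and the class IIa members HDAC4 and HDAC9 lie below 1 TPM in both libraries.

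HDAC1 (ENSG00000116478.7, chromosome 1, 32757687 to 32799236, plus strand) is, with HDAC2, the catalytic subunit of the SIN3, NuRD and CoREST complexes. It had 7241 reads in replicate 1 and 6287 in replicate 2, which is 68.2 TPM (95% counting interval 66.6 to 69.7) and 59.1 TPM (57.7 to 60.6). It was the highest member in either library, and 95.7% of protein-coding genes lay below its mean of 63.7 ± 6.37 TPM. Both values of HDAC1 exceeded every value of the other members.

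HDAC2 (ENSG00000196591.7, chromosome 6, 114254192 to 114332472, minus strand), its close paralog, had 3929 and 3386 reads. These gave 9.59 TPM in replicate 1 (9.29 to 9.89) and 8.26 TPM in replicate 2 (7.98 to 8.54), with 68.9% of protein-coding genes below its mean of 8.92 ± 0.940. HDAC1 thus stood 7.11-fold above HDAC2 in replicate 1 (6.84 to 7.39) and 7.16-fold in replicate 2 (6.87 to 7.47). The ratio was nearly the same in both libraries, with a log2 value of 2.83 ± 0.0076.

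The size of that ratio depended on the length by which the reads were divided. The deposited exon length of HDAC2 was 15461 bases, of which 8061 formed 1 uninterrupted block, while that of HDAC1 was 4009. On the scales per coding base and per base of the principal transcript, all exon reads of a gene were divided by that length. Reads outside those bases were thus still counted, and these folds are not densities over those bases. In reads alone (CPM) HDAC1 was 1.85-fold above HDAC2. Per base of coding sequence (1446 bases for HDAC1 and 1464 for HDAC2) it was 1.87-fold above it, and per base of the principal transcript in GENCODE 29 (2124 and 9874 bases) 8.60-fold. The protein-coding transcripts of HDAC2 listed there spanned 502 to 9874 bases, and the counts do not tell which of them the cells made. HDAC1 was above HDAC2 on each of the 5 scales tried, with folds from 1.85 to 8.60. This range does not bound the fold, because the other transcript lengths were not tried.

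The promoters of this pair are shown because the paralogs differ in level on every scale tried. Both windows are 300 bases from RefSeq, read in the direction of transcription, HDAC1 at chr1:32291833-32292132 (plus strand) and HDAC2 at chr6:113971099-113971398 (minus strand) of GRCh38.p14. Capitals mark the GC box GGGCGG and the motif CCAAT on either strand.
HDAC1: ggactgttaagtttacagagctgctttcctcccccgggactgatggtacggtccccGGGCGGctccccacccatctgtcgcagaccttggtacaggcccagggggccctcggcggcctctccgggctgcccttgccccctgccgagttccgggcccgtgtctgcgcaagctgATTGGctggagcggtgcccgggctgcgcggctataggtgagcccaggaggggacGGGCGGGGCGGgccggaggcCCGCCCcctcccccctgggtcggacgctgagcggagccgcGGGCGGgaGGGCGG
HDAC2: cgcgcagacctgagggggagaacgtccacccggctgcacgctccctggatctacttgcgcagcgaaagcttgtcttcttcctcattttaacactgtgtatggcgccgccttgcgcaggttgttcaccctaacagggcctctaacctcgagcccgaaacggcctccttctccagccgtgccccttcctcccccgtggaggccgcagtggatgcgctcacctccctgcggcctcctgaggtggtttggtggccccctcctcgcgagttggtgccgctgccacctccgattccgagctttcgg
The HDAC1 window held 6 GC boxes, counting overlapping ones, and 1 CCAAT motif, and the HDAC2 window held neither. The windows had 28 and 24 CpG dinucleotides. A GC box was found in 15785 and CCAAT in 12155 of the 35114 promoter windows of the same table, and in 8 and 6 of 19 windows of the members. RefSeq windows were found for 9 of the 10 members, HDAC5 being the one not matched. None of the 19 windows held the full estrogen response element, searched as GGTCA and TGACC with any 3 bases between them, which was present in 20 of all windows. The half-site GGTCA, searched on both strands, was in 7 of 19 windows and in 37.4% of all. These matches describe the letters of the windows and say nothing about binding in these cells.

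HDAC3 (ENSG00000171720.5, chromosome 5, 141000443 to 141016437, minus strand) is the enzyme of the NCoR corepressor complex. It had 28.6 TPM in replicate 1 (27.6 to 29.5) and 25.6 TPM in replicate 2 (24.7 to 26.5), and 87.9% of protein-coding genes lay below its mean. It was second to HDAC1 in both libraries, 2.38-fold and 2.31-fold below it. An overlapping gene row on the other strand covers 9.20% of its exon bases, and reads in that stretch were not assigned, so HDAC3 may be underestimated. Divided by the unshared bases alone, its distance from HDAC1 narrowed to 2.13-fold.

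HDAC8 (ENSG00000147099.15, chromosome X, 71549366 to 71792953, minus strand) removes acetyl groups from the cohesin subunit SMC3. It was the lowest class I member with 4.44 TPM (4.10 to 4.79) and 3.94 TPM (3.62 to 4.28). HDAC3 exceeded it 6.47-fold (log2 ratio 2.69 ± 0.0088). SMC3 itself had 34.4 ± 6.17 TPM, and the acetyltransferases that act on it, ESCO1 and ESCO2, had 12.5 ± 3.14 and 7.35 ± 1.99 TPM. All 3 of these genes were above HDAC8 in TPM.

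The class IIa members differed widely in level among themselves. HDAC5 (ENSG00000108840.11, chromosome 17, 42154114 to 42201070, minus strand) had 14.2 TPM (13.7 to 14.7) and 13.6 TPM (13.1 to 14.1). HDAC7 (ENSG00000061273.13, chromosome 12, 48176505 to 48226915, minus strand) had 3.21 TPM (2.99 to 3.43) and 3.64 TPM (3.41 to 3.88). HDAC5 was the leading member of this class in both libraries, 4.43-fold and 3.74-fold above HDAC7. The mean fold was 4.07, and 2.40 per base of the principal transcript. Of the exon bases of HDAC7, 10.0% are shared with overlapping genes. HDAC4 (ENSG00000068024.12, chromosome 2, 239969864 to 240323348, minus strand) had 268 and 240 reads, or 0.752 TPM (0.665 to 0.848) and 0.673 TPM (0.591 to 0.764). HDAC9 (ENSG00000048052.17, chromosome 7, 18126572 to 19042039, plus strand) had 108 and 84 reads, or 0.242 TPM (0.199 to 0.292) and 0.188 TPM (0.150 to 0.233). Both genes were low in both libraries, with 41.3% and 34.6% of protein-coding genes below their means.

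HDAC5 lay 19.5-fold above HDAC4 (log2 ratio of HDAC4 to HDAC5 -4.29 ± 0.070), and 10.7-fold above it per coding base. HDAC4 exceeded HDAC9 3.33-fold (log2 ratio 1.74 ± 0.14). This last order depended on length: per base of the principal transcript, 8976 bases for HDAC4 and 3210 for HDAC9, the log2 ratio was -0.071 and the genes were not separated.

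HDAC6 (ENSG00000094631.14, chromosome X, 48659784 to 48683392, plus strand), a mainly cytoplasmic enzyme that deacetylates alpha-tubulin, had 8.44 TPM (8.10 to 8.79) and 7.83 TPM (7.50 to 8.16). HDAC11 (ENSG00000163517.10, chromosome 3, 13521224 to 13547916, plus strand), the only class IV member, had 17.6 TPM (16.9 to 18.3) and 15.6 TPM (15.0 to 16.3). HDAC11 was 2.04-fold above HDAC6 (log2 ratio of HDAC6 to HDAC11 -1.03 ± 0.049). In CPM the 2 genes did not differ beyond the replicate spread (log2 ratio -0.048), since the exon length of HDAC6 is 10412 bases and that of HDAC11 5273. Per coding base HDAC11 was 3.62-fold above HDAC6. The antisense gene HDAC11-AS1 covers 6.26% of the exon bases of HDAC11, and counting without strand leaves such reads unassigned.

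Sorted by mean TPM, the members ran HDAC1, HDAC3, HDAC11, HDAC5, HDAC2, HDAC6, HDAC8, HDAC7, HDAC4 and HDAC9. Of the 9 pairs of neighbours in this order 6 were apart. Apart means, first, that each library's counting interval left out a ratio of 1 on the same side. Second, the mean ratio was larger than the replicate difference that 95% of genes at the lower partner's level stayed within. The 3 pairs that did not differ beyond this spread were HDAC11 and HDAC5 (1.19-fold), HDAC2 and HDAC6 (1.10-fold) and HDAC8 and HDAC7 (1.22-fold). HDAC3 and HDAC11, apart in TPM (1.63-fold), were not apart per coding base (1.16-fold). HDAC8 and HDAC7 were apart from replicate 1 alone (log2 ratio 0.47), and the 3 pairs named as not differing in TPM were each apart on other length scales. The spread was 0.36 on the log2 scale for genes of 10 to 100 CPM and 0.81 for genes of 1 to 10 CPM. It holds only error between libraries, and none that comes from the choice of exon length.

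**Figure D2:**
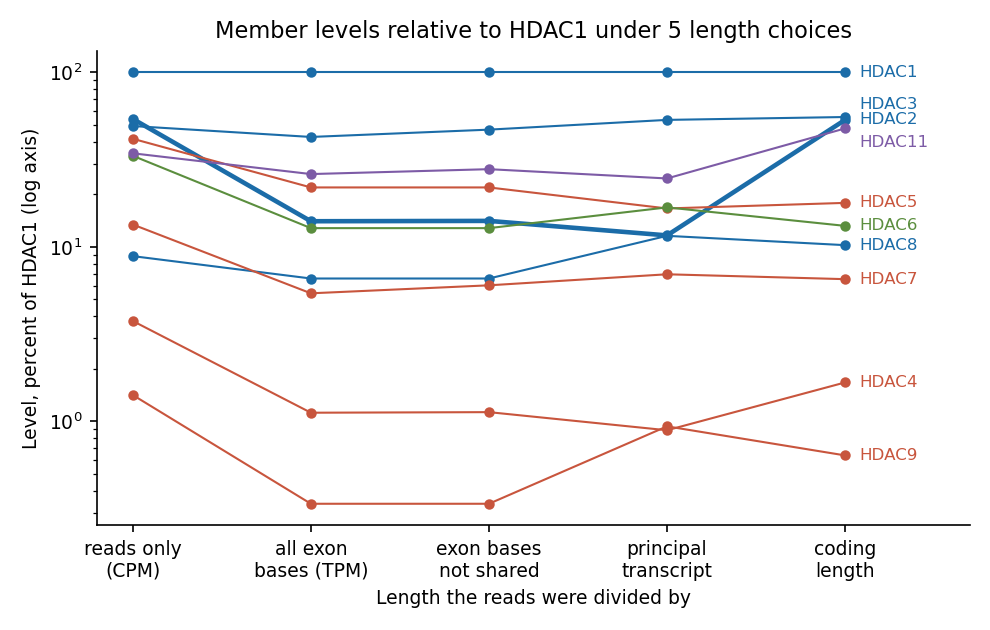
Level of each member as a percent of HDAC1 (log axis), as the mean of the 2 libraries, under 5 choices of the length by which reads were divided. Colours are classes (blue I, red IIa, green IIb, purple IV). The thick line is HDAC2, which stands at 54.1% of HDAC1 in reads alone, at 11.6% per base of the principal transcript and at 53.4% per coding base, while HDAC1 is highest and HDAC4 and HDAC9 are lowest under each choice.

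Length moved HDAC2 more than its neighbours in the order. Its place from the top was 5 in TPM, 2 in CPM, 3 per coding base and 6 per base of the principal transcript. HDAC3 held place 2 or 3, HDAC7 place 7 or 8, and HDAC1 place 1 on all 5 scales. The class I share of the summed level was 62.4 ± 1.26% in CPM and between 70.5% and 72.5% on the 4 scales per length.

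The 2 libraries were then compared gene by gene to see whether the members' replicate error exceeded counting error. At an adjusted p under 0.05 (exact two-sided binomial test, Benjamini-Hochberg over 23006 genes), 2 of 10 members differed, as did 28.4% of all genes tested and 41.2% of protein-coding genes at 1 CPM or more. HDAC7 was 1.28-fold higher in replicate 2 relative to library size (20.4 and 25.8 CPM, adjusted p = 3.17e-06, exact binomial test). HDAC5 was 1.08-fold higher there (69.3 and 73.9 CPM, adjusted p = 0.0191, exact binomial test). Of all genes tested 13.5% were called higher in replicate 2. Both members are class IIa genes, and the test compares these libraries, not conditions. With library totals in place of TMM sizes, or with counts halved, 1 member differed. Each member stayed within the replicate difference of 95% of genes at its level, although HDAC7 (log2 ratio of replicate 1 to replicate 2 -0.35) lay just inside it (0.36).

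**Figure D3:**
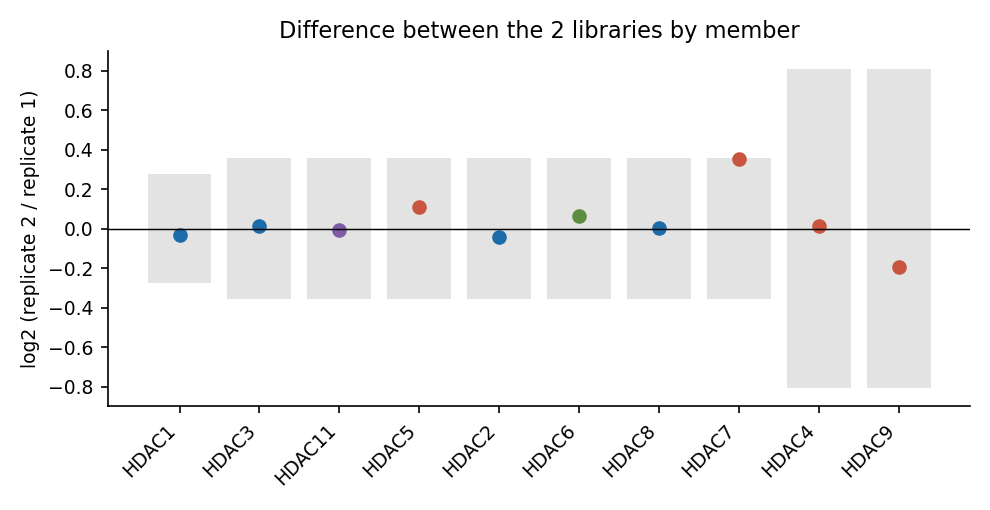
Log2 ratio of replicate 2 to replicate 1 for each member after TMM scaling (points, coloured by class as in the other plots). Grey bars span the 95th percentile of absolute replicate differences of protein-coding genes in the same CPM class. All 10 points lie within their bars, and HDAC7, 1.28-fold higher in replicate 2, is nearest to the edge.

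In TPM, 9 of 10 members were lower in replicate 2, HDAC7 being the exception, as were 82.4% of detected protein-coding genes. Nuclear protein-coding genes took 29.8% of the TPM scale in replicate 1 and 26.4% in replicate 2. On a scale of those genes alone HDAC1 had 228 and 224 TPM and HDAC3 95.8 and 97.0 TPM.

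The partners and counter-enzymes of the deacetylases were described from 13 lists of 89 genes in all, of which 81 were detected (89 of 89 matched by symbol). The 12 NuRD genes, which join HDAC1 and HDAC2 to a nucleosome remodeler, were all detected, and their median was 16.8 TPM. MTA2 (92.0 ± 8.51 TPM), RBBP7 (83.8 ± 11.2) and the remodeler CHD4 (51.5 ± 4.88) were the highest. Among alternative subunits MTA2 exceeded MTA1 10.2-fold (log2 ratio 3.36 ± 0.15), CHD4 exceeded CHD3 1.60-fold (0.68 ± 0.092) and MBD3 exceeded MBD2 1.82-fold (0.87 ± 0.28). Per base of the principal transcript the fold of MTA2 over MTA1 was 5.86 and that of MBD3 over MBD2 was 4.27. RBBP4 stood at 0.255 of the level of RBBP7 in replicate 1 and at 0.245 in replicate 2, and at 0.0960 and 0.0920 per base of the principal transcript. Other gene rows cover 22.8% of the exon bases of RBBP4. MTA1 and MTA3 did not differ beyond the spread (log2 ratio 0.011 ± 0.23), and their order turned between the 2 libraries.

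All 9 CoREST genes were detected (median 13.8 TPM), the complex in which HDAC1 or HDAC2 works beside the demethylase KDM1A. HMG20B (46.5 ± 0.410 TPM), KDM1A (34.8 ± 1.96) and ZMYM2 (25.8 ± 3.48) led the list. The scaffold RCOR1 was 2.04-fold above RCOR3 (log2 ratio 1.03 ± 0.15), but per base of the principal transcript the order turned (log2 ratio -1.02). All 15 SIN3 genes were detected as well, with a median of 11.0 TPM. SUDS3 (64.1 ± 8.08), BRMS1 (56.4 ± 4.41) and SAP18 (41.4 ± 4.35 TPM) were the highest, and the scaffold SIN3A exceeded SIN3B 1.38-fold (0.46 ± 0.00057). The 2 MiDAC genes DNTTIP1 and MIDEAS had 21.9 ± 3.31 and 6.81 ± 0.108 TPM.

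In the NCoR complex, which holds HDAC3, 3 of 4 listed genes were detected. TBL1XR1 was highest with 52.0 ± 10.6 TPM, followed by the scaffold NCOR1 with 13.3 ± 0.860 and TBL1X with 5.93 ± 0.231 TPM. GPS2 was not detected, with 45 and 31 reads, but other rows cover 52.5% of its exon bases, so its level is uncertain. In TPM HDAC3 was thus above NCOR1 and below TBL1XR1 in each library. In CPM NCOR1 (137 and 140) was above HDAC3 (84.8 and 84.6), so their order depended on length.

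Partners of the class IIa members were uneven. Of the 4 MEF2 genes, the transcription factors that class IIa proteins bind, MEF2A (3.63 ± 0.339 TPM) and MEF2D (2.24 ± 0.0783) were detected and did not differ beyond the spread (log2 ratio 0.70 ± 0.19). This call depended on the scale, since they were apart in CPM (0.83), with unshared exon bases (0.86), per coding base (0.87) and in replicate 1 alone (0.83). MEF2C had 9 and 12 reads, and MEF2B had 7 and 2 with 82.3% of its exon bases shared with other rows. All 7 genes of the 14-3-3 family were detected. Their median was 104.5 TPM, and the highest were YWHAG (159 ± 28.9), YWHAB (147 ± 21.6) and YWHAQ (136 ± 29.7 TPM). Of 7 kinases that phosphorylate class IIa proteins 5 were detected. SIK2 (9.10 ± 0.301), PRKD3 (7.23 ± 1.04) and PRKD2 (3.21 ± 0.153 TPM) were the highest, while CAMK4 had 16 and 23 reads and PRKD1 had 2 and 0.

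HSP90AA1 and TUBA1B, whose products HDAC6 deacetylates, were the highest 2 of the 89 listed genes. HSP90AA1, a chaperone gene, had 399 ± 49.2 TPM, the alpha-tubulin gene TUBA1B 204 ± 15.4 and TUBA1A 93.2 ± 7.08 TPM. The tubulin rows share exon bases with other rows, 36.6% for TUBA1B, 34.4% for TUBA1C and 14.3% for TUBA1A. The tubulin acetyltransferase ATAT1 had no reads in either library. Of 62 protein-coding genes within 1000000 bases of ATAT1 (chromosome 6, 30594619 to 30614600) 59 had fewer than 10 reads in both libraries together, so its 0 was not read as a low level. The same held around BRD2 (chromosome 6, 32936437 to 32949282), with 5 and 4 reads, where 53 of 65 neighbours had fewer than 10. HDAC2 lies on the other arm of that chromosome, and its 1 protein-coding neighbour was not detected. Around the other 9 members the detected neighbours ranged from 9 of 20 (HDAC8) to 14 of 18 (HDAC11).

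The acetyltransferases, which add the groups that deacetylases remove, were detected in 10 of 10 cases (median 16.6 TPM). Their summed level was 146 TPM in replicate 1 and 128 in replicate 2, beside 155 and 139 TPM for the 10 deacetylases. KAT7 (25.6 ± 2.41), KAT6A (23.2 ± 1.69) and HAT1 (19.1 ± 3.11 TPM) were the highest. KAT2A exceeded KAT2B 2.87-fold (log2 ratio 1.52 ± 0.29) and 1.91-fold per coding base, and 10.7% of its exon bases are shared. In TPM HDAC1 and HDAC3 were each above all 10 acetyltransferases in both libraries. This order depended on length. In CPM KAT6A (185.1 and 185.8) was above HDAC1 (175.0 and 169.0), while the other acetyltransferases stayed below HDAC1. KAT6A and KAT7 (106.5 and 103.7 CPM) were above HDAC3 (84.8 and 84.6 CPM), and HAT1 was above it in replicate 1 only. HDAC3 was only slightly above KAT7, with 28.6 against 27.3 TPM in replicate 1 and 25.6 against 23.9 TPM in replicate 2. Whether these 2 genes were apart was not tested. The 7 sirtuins, NAD-dependent deacetylases of another family, were all detected at 3.76 to 12.2 TPM. Their median was 5.29 TPM, and the highest were SIRT1 (12.2 ± 2.14), SIRT7 (6.42 ± 0.328) and SIRT3 (5.49 ± 0.0593 TPM). Of 3 BET genes, readers of acetylated histones, BRD3 was detected with 5.76 ± 0.848 TPM, and 18.6% of its exon bases are shared with an antisense gene. The germline member BRDT had 0 and 4 reads.

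**Figure D4:**
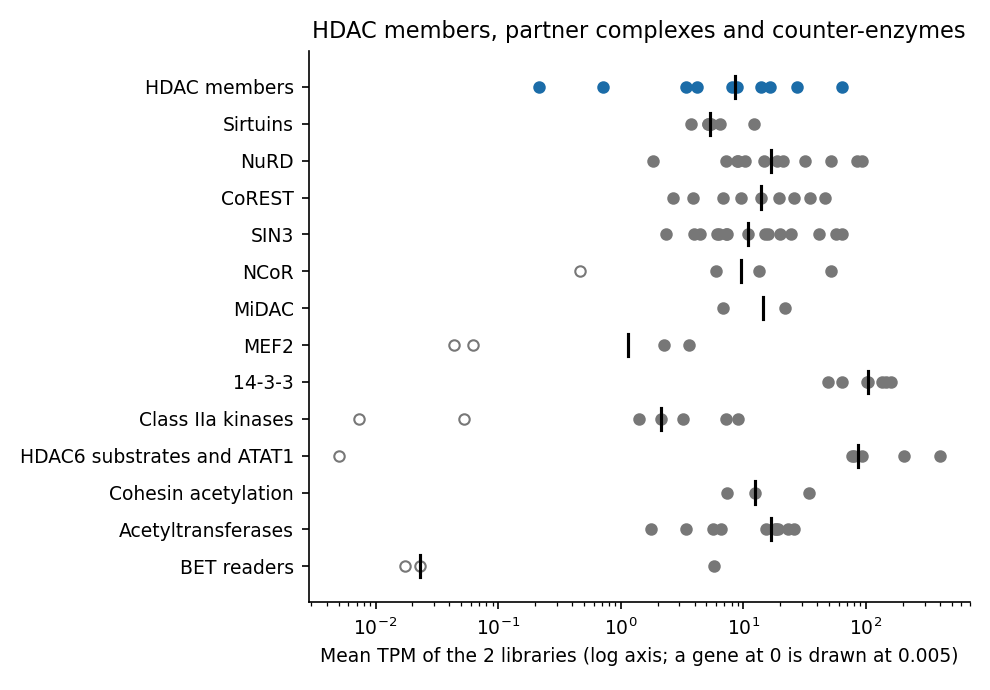
Mean TPM of the 2 libraries (log axis) for the 10 deacetylases and for each gene of 13 lists. Filled points are detected genes, open points are not, black ticks are list medians (the BET tick is the value of BRD2, which is not read as a low level), and ATAT1, with no reads, is drawn at the left edge. The 14-3-3 list has the highest median (104.5 TPM) and the deacetylases (8.53 TPM) lie between the sirtuins (5.29 TPM) and the NCoR list (9.63 TPM).

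Of the 16 pairs of paralogs or alternative subunits, 7 of them among the deacetylases, 14 were apart by the rule used for neighbours. The exceptions were MTA1 with MTA3 and MEF2A with MEF2D. All 7 deacetylase pairs were apart in TPM, 6 of 7 in CPM without HDAC6 with HDAC11, and 6 of 7 per base of the principal transcript without HDAC4 with HDAC9.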

How the data were processed

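Both T47D samples were sequenced from total RNA after removal of ribosomal RNA, with a stranded kit, per the labels' protocols. The deposited values are raw counts, made by featureCounts 2.0.2 from GENCODE 19 exons summed by gene, without options for strand, read pairs or overlapping genes, per the file headers; per the submitters' processing notes HISAT2 and hg19 were used. The deposited table gives exon length in bases. Another 8 columns of per-sample values match no sample described here and were not used in any step. Column names were matched to samples through the line's name, the mutated residue and the replicate.

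CPM used the sum of all 57820 genes, and TPM the deposited lengths. Symbols matched 51996 identifiers. Replicates were compared with an exact binomial test at TMM effective library sizes (edgeR 4.0.16), with at least 10 reads per gene. DESeq2 1.42.0 size factors were the alternative. The test was tried on simulated data that held counting error only, without further error between libraries. Since all samples form 1 group, conditions could not be compared and likeness of patterns across them was not computed. Intervals are exact Poisson for counts and exact conditional binomial for ratios, at 95%, and cover counting error only; they are too narrow if both mates of pairs were counted. A count of 0 allows up to 3 reads. GENCODE 29 gave gene types, principal (APPRIS) transcript lengths and coding lengths; HDAC8 has no principal tag there, and its transcript with the longest coding sequence was taken. All members, and of each other list the highest 3 by mean TPM, those not detected and those in the pairs compared, are named; 2 listed genes and 1 pair are not reported here. The members and lists were chosen with earlier results of these data known.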

Additional observations from a re-analysis of the deposited data

How the results depend on the processing

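The class I share of 70.7% moved to 62.4% in CPM and to 72.5% per base of the principal transcript. It stayed within 1 SD with unshared exon bases (70.5%) and per coding base (71.4%). Single libraries gave 70.0% and 71.4%, and with 2 libraries such values always lie within 1 SD of their mean. The number of members that differed between libraries was 2, and 1 with total counts or with halved counts; leaving out a replicate could not be run for it. Over all genes 6544 were called, and 3007 with halved counts. The number of neighbours apart was 6 to 8 of 9 (6 to 7 from single libraries), and of paralog or subunit pairs 14 to 16 of 16 (14 to 15 from single libraries). These counts keep the neighbours of the TPM order on every scale. They include pairs that were apart in the opposite direction, such as HDAC5 and HDAC2 in CPM. Per coding base HDAC3 over HDAC11 was no longer apart (0.22), nor in CPM HDAC6 with HDAC11 (-0.048). In CPM the log2 ratio turned for HDAC11 over HDAC5 (-0.28), HDAC5 over HDAC2 (-0.38), HDAC8 over HDAC7 (-0.59) and MTA1 over MTA3 (-0.59). Per coding base it turned for HDAC5 over HDAC2 (-1.58) and MTA1 over MTA3 (-1.07). Per base of the principal transcript it turned for HDAC2 over HDAC6 (-0.53), HDAC4 over HDAC9 (-0.071), RCOR1 over RCOR3 (-1.02) and MTA1 over MTA3 (-0.98). From replicate 1 alone MTA1 over MTA3 was -0.15, from replicate 2 alone 0.17, and from both libraries 0.011. Apart from the one seen in a single library, these turns appeared when the length was changed and the counts were not. Per base of the principal transcript HDAC4 stood at 0.887 of HDAC9 in replicate 1 and at 1.02 in replicate 2. The order of HDAC4 and HDAC9 thus turned in replicate 1 only. The transcript and coding lengths were chosen after seeing the data. With unshared exon bases no mean log2 ratio turned. HDAC8 over HDAC7 was then 1.245 in replicate 1 and 0.975 in replicate 2, against 1.38 and 1.08 in TPM, so this order turned in replicate 2 only. TPM over protein-coding genes leaves ratios and shares within a library unchanged, so it could not turn any. Detection of 10 members fell to 8 at 1 TPM. The count was also 10 in each single library, at 0.5 CPM and at 10 reads. Those rules are looser than 1 CPM in both libraries, so they could not lower it. No paired analysis was possible because there is 1 group. Depth limits HDAC9 most, with 84 reads in replicate 2.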
